A study of Mus musculus with 24 samples.

Results

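The axon guidance ligands and receptors were followed as 1 gene module in the ventral hippocampus of 2 inbred mouse strains. Members were taken by symbol, as the semaphorins with their plexin and neuropilin receptors, the ephrins with their Eph receptors, the Slits with Robo, and the netrins and netrin-Gs with Dcc and Unc5. The rule found 70 of the 33902 symbols of the single-nucleus RNA table, and all 70 had counts in both strains. The strains were C57BL/6J (B6) and DBA/2J (D2), adult males of 10 to 16 weeks with no treatment, and each was represented by 2 libraries, each from the pooled tissue of about 2 animals. Nuclei for RNA were sorted on NeuN, a neuronal nuclear protein, and the sorted neuronal and non-neuronal nuclei were mixed so that neurons predominated, which means that the sort set the split between neurons and other cells. D2 reads were mapped to a version of the reference genome that carried the D2 single-nucleotide variants. Of the 17 annotated cell types, 14 were analysed here: the excitatory neurons labelled CA1 (Exc-CA1-Camk2d, Exc-CA1-Fras1 and Exc-CA1-Galntl6), CA3 (Exc-CA3), the dentate gyrus (Exc-DG) and the types Exc-ENT, Exc-Cdh12 and Exc-Gpc6, the inhibitory type Inh-MGE, and 5 non-neuronal types, namely astrocytes (NN-Astro), microglia (NN-MGC), oligodendrocytes (NN-ODC), their precursors (NN-OPC) and vascular leptomeningeal cells (NN-VLMC).

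Axon guidance molecules steer growing axons and migrating cells by attraction or repulsion. Secreted class 3 semaphorins signal mostly through neuropilins paired with plexin-A receptors, whereas Sema3e can bind a plexin directly and the membrane-bound semaphorins act through plexins. Ephrins and Eph receptors signal in both directions where cells touch, Slits repel axons through Robo, and netrins attract through Dcc or repel through Unc5. In the adult hippocampus many of the same molecules remain expressed, where they are known for roles in synapse formation, mossy fibre targeting, spine maintenance and glial and vascular biology.

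The promoters of Sema3c, Sema3e, Sema4g and Efnb2 are shown because the transcript and the chromatin at the gene start were compared for these members below. The sequences are from RefSeq for GRCm38.p6, run 5′ to 3′ from 250 bases before to 50 bases after the gene start on the strand of the gene, and capitals mark CG, a motif that reads the same on both strands. They lie at chr5:17574566-17574865 (plus strand, Sema3c), chr5:14025026-14025325 (plus, Sema3e), chr19:44989094-44989393 (plus, Sema4g) and chr8:8661193-8661492 (minus, Efnb2).
Sema3c: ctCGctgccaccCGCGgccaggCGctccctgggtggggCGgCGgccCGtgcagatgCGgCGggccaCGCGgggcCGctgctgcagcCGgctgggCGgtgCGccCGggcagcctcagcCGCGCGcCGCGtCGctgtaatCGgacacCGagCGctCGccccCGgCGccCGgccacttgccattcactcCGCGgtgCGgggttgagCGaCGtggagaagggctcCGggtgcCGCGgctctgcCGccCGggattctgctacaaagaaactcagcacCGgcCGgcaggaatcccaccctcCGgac
Sema3e: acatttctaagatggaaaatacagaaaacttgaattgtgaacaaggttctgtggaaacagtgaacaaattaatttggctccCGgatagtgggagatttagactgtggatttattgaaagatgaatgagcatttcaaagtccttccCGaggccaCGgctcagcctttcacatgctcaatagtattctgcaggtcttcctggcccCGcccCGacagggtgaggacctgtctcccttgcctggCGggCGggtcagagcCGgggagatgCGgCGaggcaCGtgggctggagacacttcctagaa
Sema4g: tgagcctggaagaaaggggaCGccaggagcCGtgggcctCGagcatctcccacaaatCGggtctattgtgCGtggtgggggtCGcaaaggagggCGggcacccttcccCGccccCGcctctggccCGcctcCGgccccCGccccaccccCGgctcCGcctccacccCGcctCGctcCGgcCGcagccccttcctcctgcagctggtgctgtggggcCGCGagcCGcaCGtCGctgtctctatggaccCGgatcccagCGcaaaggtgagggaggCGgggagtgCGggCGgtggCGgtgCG
Efnb2: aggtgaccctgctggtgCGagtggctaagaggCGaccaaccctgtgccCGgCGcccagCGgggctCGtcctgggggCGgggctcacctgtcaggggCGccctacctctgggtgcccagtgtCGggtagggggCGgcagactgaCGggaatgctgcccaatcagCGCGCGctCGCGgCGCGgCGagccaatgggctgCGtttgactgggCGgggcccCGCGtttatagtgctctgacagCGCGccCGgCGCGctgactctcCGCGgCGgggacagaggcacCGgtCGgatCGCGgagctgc
The Sema3c promoter held 42 CG, a number that 3.03% of the 32851 promoters of this length reached. The Sema3e promoter held 11, which 41.4% reached, that of Sema4g held 30, which 11.7% reached, and that of Efnb2 held 35, which 6.95% reached. At least 1 CG was found in 94.6% of all promoters, and the median was 7 over all promoters and 19.5 over the 76 promoters of the 60 members that matched the table.

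Counts had been summed over the nuclei of each type in each library, from 76 to 1489 nuclei and from 225029 to 11352265 counts, with the smallest totals in NN-VLMC. Levels are given as CPM, the counts of a gene per 1000000 counts of that total, and a level of a few CPM in NN-VLMC or NN-MGC rests on few counts. A lower level can come from fewer expressing nuclei or from less RNA per nucleus, and these cannot be told apart in sums. Each glial type carried its own markers: the list for astrocytes summed to between 9202 and 10562 CPM in NN-Astro, that for oligodendrocytes to between 12924 and 14171 CPM in NN-ODC, and that for microglia to between 6603 and 7776 CPM in NN-MGC. No CA1 label was borne out by all of its markers. Fibcd1 was between 29.6 and 78.8 CPM in Exc-CA1-Camk2d and between 58.7 and 76.7 CPM in Exc-CA1-Galntl6, but only between 5.12 and 12.2 CPM in Exc-CA1-Fras1. Wfs1 was between 25.8 and 48.0 CPM in Exc-CA1-Camk2d, between 4.82 and 10.9 CPM in Exc-CA1-Galntl6, below its 11.7 to 15.5 CPM in NN-Astro, and between 3.55 and 3.95 CPM in Exc-CA1-Fras1. Pou3f1 was between 0.844 and 2.31 CPM in Exc-CA1-Camk2d, between 22.4 and 37.6 CPM in Exc-CA1-Galntl6, between 22.0 and 47.1 CPM in Exc-CA1-Fras1 and between 29.9 and 75.0 CPM in Exc-Gpc6. The names are used as given. Markers of other types were measured in every type. Outside its own type the microglial list reached at most 4.84% of its own-type mean and the oligodendrocyte list 3.02%, whereas the astrocyte list reached 14.6% in NN-VLMC, with means of 1302 CPM in B6 and 1507 CPM in D2. The list for oligodendrocyte precursors reached 14.5% and that for vascular leptomeningeal cells 13.9%, the latter in Exc-CA1-Camk2d. The MGE list had means of 1674 and 1740 CPM in NN-OPC, within its range of 1510 to 3048 CPM in Inh-MGE. The microglial list was lower in both D2 libraries than in both B6 libraries in all 13 other types, with B6 means of 163 to 371 CPM and D2 means of 87.0 to 312 CPM. The oligodendrocyte list was lower in D2 in 12 of 13 other types and higher in NN-OPC, and the list for vascular leptomeningeal cells was higher in D2 in 9 of 13. The Cajal-Retzius list was lower in D2 in 8 of 14 types and higher in 1. The part of this in the members' differences was not tested.

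The members were spread over neuronal and non-neuronal types rather than gathered in 1 class. Of the 67 members with at least 50 counts, 25 had a leading type, in which the lowest of the 4 libraries lay above the highest library of every other type. That is 37.3% of the members, beside 24.7% of all symbols with at least 50 counts. This comparison and that of tau below were not matched for level. Of these 25, 4 led in Exc-DG, 4 in NN-ODC, 3 in NN-OPC and 3 in NN-VLMC. The specificity index tau, which is 0 for an even level over types and 1 for a single type, had a median of 0.738 over the members and 0.613 over all symbols. The types were clustered by the study on the same counts, so these levels are a description with no test. The SD given with a level below is over the 4 libraries of both strains, so it includes any strain difference.

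**Figure D1:**
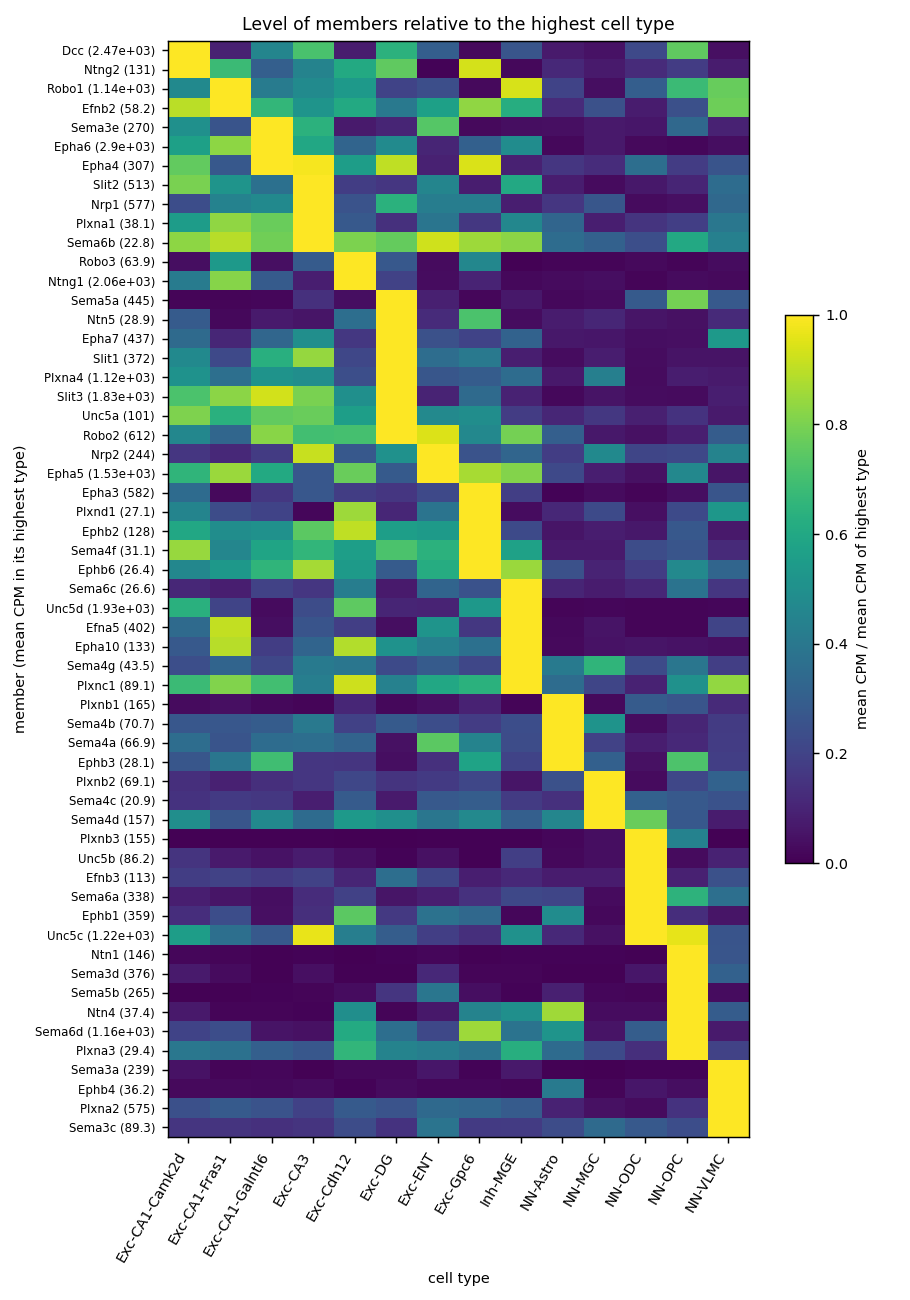
Mean level of each member in each cell type, divided by its mean in the type where it was highest, for members that reached at least 20 CPM; the number after each symbol is the mean CPM in that type over 4 libraries. Sema3a fills 1 column, NN-VLMC (239 CPM), and Ntn1 is highest in NN-OPC (146 CPM) with a lower level in NN-VLMC (38.6 CPM). Sema6b and Efnb2 are spread over most neuronal types.

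Among the secreted semaphorins, Sema3a, a repellent that acts through Nrp1, was at 239 ± 57.3 CPM (SD, n = 4) in NN-VLMC and at 16.1 ± 2.58 CPM in the next type, Inh-MGE. Sema3d was at 376 ± 107 CPM in NN-OPC, where the transmembrane Sema5b also led with 265 ± 22.0 CPM. Among the class 4 semaphorins, Sema4b led in NN-Astro with 70.7 ± 4.49 CPM and Sema4c in NN-MGC with 20.9 ± 4.32 CPM. Sema5a, a transmembrane semaphorin, was at 445 ± 35.1 CPM in Exc-DG, and its next level was 353 ± 38.9 CPM in NN-OPC. Of the receptors for these ligands, Nrp1 led in Exc-CA3 with 577 ± 32.2 CPM, ahead of Exc-DG with 369 ± 9.10 CPM. Nrp2 had no leading type, since its 244 ± 24.2 CPM in Exc-ENT and 223 ± 28.6 CPM in Exc-CA3 overlapped. Of the plexins, Plxnb1 led in NN-Astro with 165 ± 24.3 CPM, Plxnb2 in NN-MGC with 69.1 ± 9.58 CPM, Plxnb3 in NN-ODC with 155 ± 15.7 CPM, Plxna2 in NN-VLMC with 575 ± 144 CPM and Plxna4 in Exc-DG with 1123 ± 80.1 CPM. Plxna1, Plxna3, Plxnc1 and Plxnd1 had no leading type.

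Of the EphA receptors with at least 50 counts, all but Epha1 were highest in a neuronal type, and Epha1 was highest in NN-MGC at 6.68 ± 2.02 CPM. Of the EphB receptors, Ephb2 and Ephb6 were highest in Exc-Gpc6, and Ephb1, Ephb3 and Ephb4 in non-neuronal types, Ephb3 in NN-Astro at 28.1 ± 9.90 CPM. Epha3 led in Exc-Gpc6 with 582 ± 60.6 CPM, Epha6 in Exc-CA1-Galntl6 with 2903 ± 168 CPM and Epha7 in Exc-DG with 437 ± 9.87 CPM. Ephb4, known as the venous receptor of Efnb2, led in NN-VLMC with 36.2 ± 14.3 CPM. Ephb1 was highest in NN-ODC at 359 ± 86.0 CPM, but its libraries overlapped those of Exc-Cdh12 at 269 ± 74.5 CPM. Among the ligands, Efnb3 led in NN-ODC with 113 ± 13.5 CPM, whereas Efna5 was at 402 ± 28.1 CPM in Inh-MGE and overlapped with Exc-CA1-Fras1 at 365 ± 36.4 CPM. Efnb2 was highest in Exc-CA1-Fras1 at 58.2 ± 12.8 CPM and was lowest in NN-ODC.

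In the Slit and netrin systems, Slit1 led in Exc-DG with 372 ± 19.2 CPM, whereas Slit2 was highest in Exc-CA3 at 513 ± 42.9 CPM and its libraries overlapped those of Exc-CA1-Camk2d. Robo3, a receptor best known from commissural axons, led in Exc-Cdh12 with 63.9 ± 13.8 CPM. Robo1 was about as high in Exc-CA1-Fras1, at 1136 ± 140.2 CPM, as in Inh-MGE, at 1067 ± 95.4 CPM, and these did not differ beyond their spread. Ntn1, the archetypal netrin, led in NN-OPC with 146 ± 8.67 CPM, and Ntn5 was highest in Exc-DG with 28.9 ± 2.64 CPM. The membrane-anchored Ntng1 was at 2063 ± 513 CPM in Exc-Cdh12 and its relative Ntng2 at 131 ± 17.9 CPM in Exc-CA1-Camk2d, neither of them separated from the next type. Dcc, the attractive netrin receptor, led in Exc-CA1-Camk2d with 2473 ± 294 CPM, and its next level was in NN-OPC, at 1865 ± 61.1 CPM. Unc5b led in NN-ODC with 86.2 ± 12.2 CPM, and Unc5d was highest in Inh-MGE at 1932 ± 151 CPM.

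Strain was then compared within each type. Over the 14 types, 707 of 980 pairs of a member and a type had enough counts to be tested, 65 of the 70 members in at least 1 type. With edgeR's quasi-likelihood test and Benjamini-Hochberg adjustment over all symbols of a type, 160 pairs (22.6%) passed an adjusted p of 0.05, beside 15.9% of all symbols tested in the same fits. By level, 132 of 444 member pairs at 20 CPM or more passed, and 28 of 263 under 20 CPM. The shares of all symbols given here were not matched for level. Of the 160, 117 were lower in D2, 16.5% of the pairs tested against 9.07% of all symbols, and 43 were higher, 6.08% against 6.82% of all symbols. In 158 of the 160 the libraries of the strains did not overlap, a share that was not compared with that of all symbols called. The lower share of the calls was 73.1% among members and 57.1% among all symbols. With plain library totals in place of normalization factors, a setting chosen after seeing the data, 99 member pairs were lower and 56 higher, and the lower share was 63.9% among members and 47.0% among all symbols, with medians of all symbols between -0.06 and 0.12 on the log2 scale. With DESeq2, 76 of 959 member pairs passed (7.92%), beside 3.64% of all symbols. With every symbol of the table kept, including those with counts in 1 strain only, 24.8% of member pairs and 23.8% of all symbols passed. The p-values measure the spread between 2 libraries per strain only, and an exact permutation test of 2 against 2 could not give a p below 0.33 for a single member. All types were taken from the same libraries, so calls of a member in several types are not independent.

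The share of members called varied widely by type. It was 40.5% in NN-ODC (17 of 42, all symbols 14.2%), 37.9% in Exc-CA1-Galntl6 (22 of 58, all symbols 26%), 37.7% in NN-Astro (20 of 53, all symbols 18.7%) and 36.7% in Exc-DG (22 of 60, all symbols 25.6%). It was 28.6% in Exc-CA1-Fras1 (all symbols 20.2%), 24.1% in Exc-CA3 (21.9%), 21.6% in NN-OPC (11.3%), 20.7% in Exc-ENT (18.6%) and 19.6% in Exc-Gpc6 (12.5%). The non-neuronal types with the smallest totals gave 5 calls each, 18.5% of the members tested in NN-MGC (all symbols 8.13%) and 16.7% in NN-VLMC (5.82%). The share was at or below that of all symbols in Inh-MGE, where 2 of 55 members passed (3.64% against 11.8%), and in Exc-CA1-Camk2d, where 2 of 58 passed (3.45% against 9.4%). Exc-Cdh12 had 2 calls of 49 (4.08% against 3.3%). Members called lower outnumbered those called higher in each of the 14 types, and the same held for all symbols in each type. The median log2 fold change of the members tested lay between -0.173 and 0.033 in the types, and that of all symbols between -0.005 and 0.013.

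**Figure D2:**
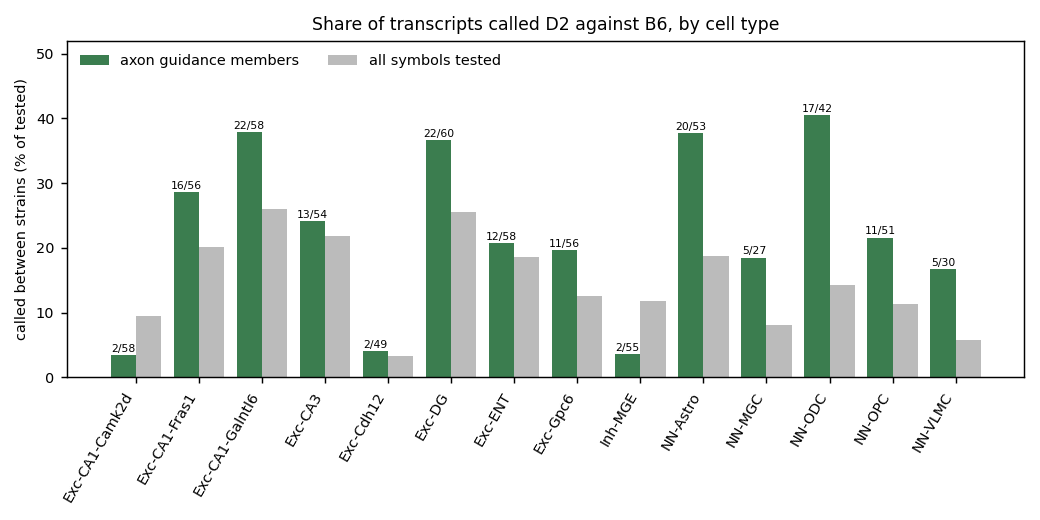
Share of transcripts that passed an adjusted p of 0.05 between D2 and B6 in each cell type, in percent of those tested, for the members (green, with the number called over the number tested) and for all symbols (grey). The green bar stands above the grey one by the widest margin in NN-ODC (40.5% against 14.2%) and below it in Inh-MGE and Exc-CA1-Camk2d.

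The families were called at different rates, read here beside the 15.9% of all symbols. The pairs repeat the same members over types of the same libraries, so a rate can rest on few members. Dcc and the Unc5 receptors gave 25 calls in 61 pairs (41.0%), 20 of them lower in D2, and all 5 members were called in some type. Class 3 semaphorins gave 21 calls in 50 pairs (42.0%), 19 of them lower. Of these 21, 9 were of Sema3c and 8 of Sema3e, and 4 of the 7 members were called in any type. The Robo receptors gave 13 calls in 34 pairs (38.2%), 11 of them lower, and the Slits 13 in 40 (32.5%), 12 of them lower. The 10 calls of the ephrin-B ligands in 32 pairs (31.2%) were all lower. So were the 7 calls of the neuropilins in 28 pairs (25.0%), and with library totals without normalization factors 1 further pair, Nrp2 in Exc-ENT, was called higher. The netrins gave 3 higher and 3 lower calls in 15 pairs (40.0%), and the netrin-Gs 5 calls in 25 pairs, all higher. The other families were called about as often as all symbols or less. EphA receptors gave 16 calls in 88 pairs (18.2%), 14 of them lower, and EphB receptors 9 in 49 (18.4%), 5 higher and 4 lower. Class 5 to 7 semaphorins gave 15 calls in 81 pairs (18.5%), 10 of them higher, and class 4 semaphorins 10 in 71 (14.1%), 8 of them higher. The plexins gave 8 calls in 98 pairs (8.16%), all lower, and the ephrin-A ligands 2 in 35 (5.71%), both lower and both of Efna5.

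Sema3c, a secreted semaphorin with roles in vascular and axonal patterning, was lower in D2 in 9 types, more than any other member. In NN-VLMC it was at 158 and 114 CPM in B6 and 24.8 and 60.8 CPM in D2, giving a log2 fold change of -1.74 ± 0.35 (SE, adjusted p = 0.000707). The strains did not overlap, but the call was lost without D2 library 2, when the fold change was -1.08. In Exc-CA1-Galntl6 the level was 19.5 and 15.7 CPM in B6 and 9.35 and 5.53 CPM in D2, giving a log2 fold change of -1.28 ± 0.21 (SE, adjusted p = 0.000137), and in Exc-DG it was 21.3 and 13.3 CPM in B6 and 10.6 and 6.82 CPM in D2, giving a log2 fold change of -1.03 ± 0.23 (SE, adjusted p = 0.00392). These 2 calls held in all 12 alternatives run, although without B6 library 2 the fold change in Exc-DG was -0.66, and the other 7 were lost in at least 1. In the other 6 types its log2 fold change lay between -1.11 in NN-OPC and -0.63 in Exc-ENT, the former lost without B6 library 2 or D2 library 3 (-0.70) and the latter without D2 library 2 (-0.35). The change was smaller without B6 library 2 than without B6 library 3 in all 9 types. The types share these libraries, so the 9 calls are not independent. The microglial marker list was lower in D2 in all 9 of these types, the oligodendrocyte list in 7 of the 8 other than its own and higher in 1, and the Cajal-Retzius list lower in 6 and higher in 1. The vascular leptomeningeal list, of the type where Sema3c was highest, was higher in 5 of 8, and the part of these lists was not tested.

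Sema3e, which repels through Plxnd1, was lower in D2 in 7 types and higher in 1. In Exc-DG it was at 17.0 and 16.2 CPM in B6 and 38.3 and 42.3 CPM in D2, giving a log2 fold change of 1.21 ± 0.11 (SE, adjusted p = 9.17e-07). In NN-OPC it was at 129 and 127 CPM in B6 and 47.7 and 62.1 CPM in D2, giving a log2 fold change of -1.24 ± 0.16 (SE, adjusted p = 2.09e-09). Exc-DG thus had both D2 libraries above both B6 libraries, and NN-OPC the reverse. In Exc-CA1-Galntl6, where Sema3e was highest, it was at 316 and 293 CPM in B6 and 237 and 234 CPM in D2, giving a log2 fold change of -0.44 ± 0.07 (SE, adjusted p = 4.88e-05). Lower levels were also called in Exc-CA1-Fras1, Exc-CA3, Exc-ENT, NN-Astro and Inh-MGE, the last with -1.42 and lost under DESeq2. The strain difference of Sema3e varied between types (interaction F test of edgeR, adjusted p = 1.56e-08). Sema3d was lower in D2 in NN-OPC, its leading type, at 486 and 447 CPM in B6 and 262 and 311 CPM in D2, giving a log2 fold change of -0.73 ± 0.11 (SE, adjusted p = 6.84e-08). It was also lower in NN-ODC and in Exc-CA1-Fras1, where its fold change of -1.17 was -0.72 and not called without D2 library 3.

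Among membrane-bound semaphorins, Sema4a, Sema4g, Sema6a and Sema6b were called higher only in D2, Sema4f, Sema5b and Sema6c lower only, and Sema4b, Sema4c and Sema7a in no type. Sema4g, a class 4 semaphorin, was at 4.33 and 3.90 CPM in B6 and 16.4 and 14.7 CPM in D2 in Exc-DG, a log2 fold change of 1.86 ± 0.18 (SE, adjusted p = 1.53e-06). Its strains did not overlap in Exc-CA1-Galntl6 either, with 5.20 and 5.45 CPM in B6 and 15.1 and 11.4 CPM in D2 (1.26), nor in Exc-CA3, with a log2 fold change of 0.62 that was lost without D2 library 2. Sema4a, a related class 4 member, was higher in D2 in 4 types, by 0.83 in Exc-CA1-Fras1, 0.71 in Exc-CA1-Galntl6, 0.53 in Exc-CA3 and 0.45 in NN-Astro on the log2 scale, and without D2 library 2 only the call in Exc-CA1-Galntl6 held. Sema6d, a transmembrane semaphorin that binds plexin-A1 and plexin-A4, was at 255 and 257 CPM in B6 and 571 and 591 CPM in D2 in Exc-DG, a log2 fold change of 1.12 ± 0.06 (SE, adjusted p = 2.66e-09). In NN-ODC it was at 230.0 and 273 CPM in B6 and 444 and 423 CPM in D2, giving a log2 fold change of 0.84 ± 0.12 (SE, adjusted p = 1.78e-05). It was higher by 0.41 in NN-Astro and by 0.25 in NN-OPC, calls that were lost without D2 library 3 and, for NN-OPC, in 8 alternatives in all. In Exc-CA1-Galntl6 and Exc-CA1-Fras1 it was lower in D2, at -0.49 and -0.34, the latter lost without D2 library 2, and its strain difference varied between types (edgeR interaction, adjusted p = 3.53e-11). Sema6a, which also binds plexin-A receptors, was higher in D2 in 4 types. In Exc-ENT it was at 12.7 and 21.3 CPM in B6 and 39.5 and 39.8 CPM in D2, giving a log2 fold change of 1.13 ± 0.19 (SE, adjusted p = 0.000109). The CA3 marker list was also higher there, at 597 and 540.2 CPM in B6 and 876 and 841 CPM in D2, as was the astrocyte list, at 674 and 628 CPM in B6 and 692 and 709 CPM in D2. The list for entorhinal and other excitatory neurons was lower, at 1947 and 1686 CPM in B6 and 1643 and 1674 CPM in D2. The lists for Lamp5 and Cajal-Retzius neurons, microglia and oligodendrocytes were lower too, and the vascular leptomeningeal list was higher. The part of these lists in the calls of Exc-ENT was not tested. In NN-ODC Sema5a was at 34.3 and 65.2 CPM in B6 and 219 and 185 CPM in D2, giving a log2 fold change of 2.05 ± 0.19 (SE, adjusted p = 2.7e-08). In NN-Astro it was lower in D2, at -1.01, a call lost without D2 library 2, and its interaction had an adjusted p of 3.44e-11.

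**Figure D3:**
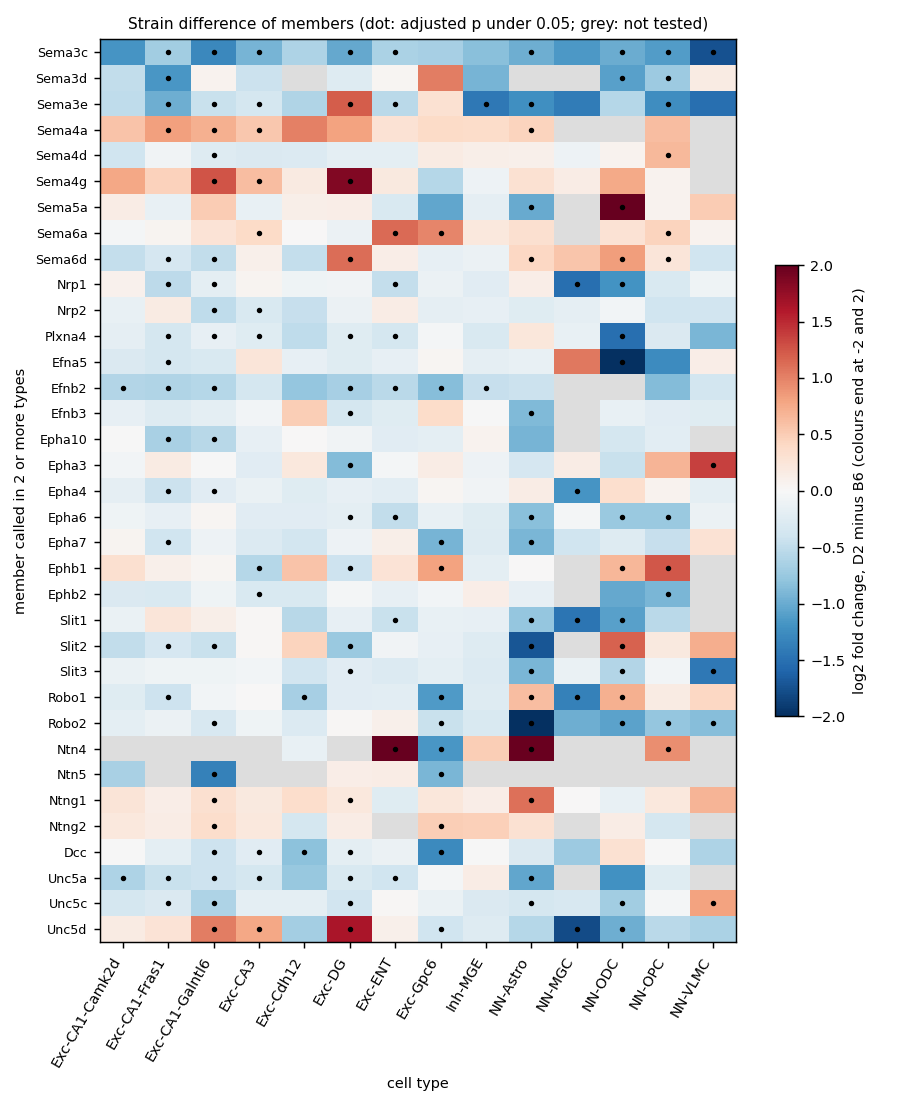
Log2 fold change between the strains (D2 minus B6; red higher and blue lower in D2, colours ending at -2 and 2) of members called in 2 or more types, with types as columns; a dot marks an adjusted p under 0.05 and grey a pair that was not tested. Sema3c, Unc5a and Efnb2 are blue in each dotted type, whereas Unc5d, Sema6d, Sema3e and Slit2 hold dots of both colours.

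The semaphorin receptors that were called were lower in D2. Nrp1, the neuropilin for Sema3a, was lower in 5 types. In NN-MGC it was at 209 and 249 CPM in B6 and 90.5 and 72.2 CPM in D2, giving a log2 fold change of -1.51 ± 0.20 (SE, adjusted p = 1.34e-05). In Exc-CA1-Fras1 and Exc-ENT it was lower by less, at -0.52 and -0.47, and in these 3 types the call held in all 12 alternatives. Its strain difference varied between types (edgeR interaction, adjusted p = 2.57e-05). Nrp2, the neuropilin known for binding Sema3f and Sema3c, was lower in Exc-CA1-Galntl6 (-0.51) and in Exc-CA3 (-0.31), the latter lost without normalization factors. Plxna4, a signalling receptor for Sema3a, was lower in 6 types. In NN-ODC it was at 43.2 and 49.5 CPM in B6 and 20.2 and 11.2 CPM in D2, giving a log2 fold change of -1.51 ± 0.26 (SE, adjusted p = 0.000152). In the 5 excitatory types its fold changes were smaller, between -0.35 in Exc-ENT and -0.16 in Exc-CA1-Galntl6, and those in Exc-CA1-Galntl6 and Exc-CA3 were lost without normalization factors. Neuronal markers differed between the strains in oligodendrocytes, in both directions. In NN-ODC the list for entorhinal and other excitatory neurons was at 117 and 114 CPM in B6 and 87.7 and 56.7 CPM in D2, and the MGE list at 95.2 and 104 CPM in B6 and 81.7 and 73.5 CPM in D2. The Cajal-Retzius list was lower there too, the lists for CA3, Exc-DG, CGE and Lamp5 overlapped between the strains, and of the CA1 markers Fibcd1 was lower in D2 (7.81 and 6.68 CPM in B6 and 4.50 and 1.40 CPM in D2) and Wfs1 and Pou3f1 were higher. Their part in the lower levels of Plxna4, Nrp1, Unc5d and Efna5 in NN-ODC was not tested. Plxna2 was lower in Exc-DG (-0.40), Plxna1 in Exc-CA1-Galntl6 (-0.43), and the other 6 plexins were called in no type. Without B6 library 3 or D2 library 3 the calls of Nrp2 in Exc-CA3 and of Plxna1 and Plxna4 in Exc-CA1-Galntl6 were lost.

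The netrin receptors were called in more pairs than other receptor families. Unc5a, a repulsive netrin receptor, was lower in D2 in 7 types, 6 of them excitatory. In Exc-CA1-Camk2d it was at 105 and 89.5 CPM in B6 and 64.7 and 66.5 CPM in D2, giving a log2 fold change of -0.62 ± 0.13 (SE, adjusted p = 0.00922). Its log2 fold changes in the other excitatory types lay between -0.45 and -0.30, and that in Exc-CA1-Fras1 was -0.85 without D2 library 2 and -0.17 without D2 library 3. In NN-Astro it was at 19.2 and 10.6 CPM in B6 and 7.92 and 6.10 CPM in D2, giving a log2 fold change of -1.04 ± 0.31 (SE, adjusted p = 0.0171), which was -0.53 without B6 library 2 and -1.42 without B6 library 3. Each of the 7 calls of Unc5a was lost in at least 1 alternative, each of them without D2 library 3, and the microglial and oligodendrocyte marker lists were lower in D2 in all 7 types and the vascular leptomeningeal list higher in 6, the part of which was not tested. Unc5c was lower in 5 types. In NN-ODC it was at 1621 and 1449 CPM in B6 and 923 and 900.5 CPM in D2, giving a log2 fold change of -0.69 ± 0.10 (SE, adjusted p = 2.27e-05). Its mean over both strains was highest there, at 1224 CPM beside 1181 CPM in Exc-CA3, but the D2 levels in NN-ODC lay below that of Exc-CA3. In Exc-CA1-Galntl6 it was at 409 and 405 CPM in B6 and 276 and 279.8 CPM in D2, giving a log2 fold change of -0.62 ± 0.06 (SE, adjusted p = 1.78e-07). In NN-VLMC Unc5c was higher in D2 (0.80), a call lost without B6 library 2 (0.58) or either D2 library.

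Unc5d changed in both directions. In Exc-DG it was at 91.9 and 98.2 CPM in B6 and 317 and 296 CPM in D2, giving a log2 fold change of 1.63 ± 0.08 (SE, adjusted p = 2.73e-10). In Exc-CA3 it was at 336 and 304 CPM in B6 and 487 and 658 CPM in D2, giving a log2 fold change of 0.77 ± 0.11 (SE, adjusted p = 0.000141). In these types and in Exc-CA1-Galntl6 (1.03) the higher B6 library was below the lower D2 library, and the change in Exc-CA1-Galntl6 was 0.62 without D2 library 2 and 1.33 without D2 library 3. In NN-MGC it was at 65.1 and 38.3 CPM in B6 and 14.3 and 14.1 CPM in D2, giving a log2 fold change of -1.79 ± 0.42 (SE, adjusted p = 0.00784), a call lost without B6 library 2 at -1.39, and it was also lower in NN-ODC and, with -0.39, in Exc-Gpc6, the last 2 lost without D2 library 3. Its interaction between strain and type had an adjusted p of 2.57e-14, the smallest among the members. Neuronal markers differed in the microglia too. In NN-MGC the list for Exc-DG (Prox1, Dsp, C1ql2, Calb1 and Slc17a7) was at 154 and 174 CPM in B6 and 97.7 and 113 CPM in D2, and the list for CA3 at 154 and 134 CPM in B6 and 97.7 and 95.0 CPM in D2. The lists for MGE, CGE, Lamp5 and Cajal-Retzius neurons were lower there as well, that for entorhinal and other excitatory neurons overlapped, and of the CA1 markers Wfs1 was higher in D2 whereas Fibcd1 and Pou3f1 overlapped. The glial lists also moved, with the astrocyte list at 559 and 557 CPM in B6 and 422 and 333 CPM in D2 and the oligodendrocyte list at 395 and 421 CPM in B6 and 324 and 204 CPM in D2. The microglial list itself was higher in D2, at 6603 and 6887 CPM in B6 and 6965 and 7776 CPM in D2. Also higher were the vascular leptomeningeal list, at 59.2 and 30.1 CPM in B6 and 66.7 and 72.2 CPM in D2, and the summed CA1 list. All 5 members called in NN-MGC were lower in D2 (Unc5d, Nrp1, Slit1, Robo1 and Epha4), and the part of RNA from these other types in them was not tested.

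Dcc was lower in D2 in 5 excitatory types. In Exc-Gpc6 it was at 83.3 and 81.8 CPM in B6 and 34.9 and 37.5 CPM in D2, giving a log2 fold change of -1.28 ± 0.16 (SE, adjusted p = 3.43e-07). In Exc-CA1-Galntl6 it was at 1267 and 1246 CPM in B6 and 981 and 992 CPM in D2, giving a log2 fold change of -0.42 ± 0.05 (SE, adjusted p = 1.41e-06). The strains did not overlap in these types, and the change was larger in the type where Dcc was lower. In Exc-Cdh12 its fold change was -0.82, lost without D2 library 3. The ligand Ntn4, a laminin-related netrin, was at 13.3 and 13.4 CPM in B6 and 49.3 and 52.4 CPM in D2 in NN-Astro, a log2 fold change of 1.97 ± 0.18 (SE, adjusted p = 2.45e-09). It was also higher in NN-OPC (0.92, lost without D2 library 2) and lower in Exc-Gpc6 (-1.16), and in Exc-ENT it was called higher at levels under 5 CPM in every library. Ntng1 was higher in D2 in NN-Astro (1.11), Exc-CA1-Galntl6 (0.32) and Exc-DG (0.21), and Ntng2 in Exc-Gpc6 (0.49) and Exc-CA1-Galntl6 (0.35), and of these 5 calls only that in NN-Astro held without D2 library 2. Ntn1 was called in no type.

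In the Slit and Robo system, the astrocytes stood out. Robo2 was at 312 and 294 CPM in B6 and 65.1 and 65.7 CPM in D2 in NN-Astro, a log2 fold change of -2.17 ± 0.11 (SE, adjusted p = 2.19e-14). Its ligand Slit2 was at 69.96 and 57.9 CPM in B6 and 17.9 and 19.97 CPM in D2 in the same type, a log2 fold change of -1.70 ± 0.16 (SE, adjusted p = 8.29e-09). Both were lower in D2 with no overlap, whereas Robo1, the other main Slit receptor, was higher there, at 188 and 180.0 CPM in B6 and 256 and 289 CPM in D2, giving a log2 fold change of 0.61 ± 0.10 (SE, adjusted p = 5.57e-05). Slit1 and Slit3 were lower in astrocytes as well, at -0.78 and -0.91, and the call of Slit1 was lost without B6 library 2 or D2 library 3. The Exc-DG marker list was also lower in D2 in NN-Astro, at 121 and 123 CPM in B6 and 86.2 and 88.5 CPM in D2, and the oligodendrocyte list was at 369 and 341 CPM in B6 and 165 and 143 CPM in D2. The lists for CA3, CGE, Lamp5 and Cajal-Retzius neurons and for microglia were lower too. The MGE list, at 941 and 924 CPM in B6 and 990.3 and 1063 CPM in D2, was higher, as were those for entorhinal and other excitatory neurons and for oligodendrocyte precursors. Their part in the astrocyte calls was not tested.

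In oligodendrocytes Slit2 went the other way. It was at 18.7 and 23.2 CPM in B6 and 45.0 and 46.9 CPM in D2 in NN-ODC, a log2 fold change of 1.18 ± 0.22 (SE, adjusted p = 0.000452). Robo1 was also higher there, at 259 and 269 CPM in B6 and 406 and 419.8 CPM in D2, giving a log2 fold change of 0.71 ± 0.12 (SE, adjusted p = 0.000111), and Robo2 was lower, with -1.07. In neurons Slit2 was lower in Exc-DG (-0.74), Exc-CA1-Galntl6 (-0.45) and Exc-CA1-Fras1 (-0.34), and Robo1 in Exc-CA1-Fras1 (-0.42) and Exc-Cdh12 (-0.66), of which Slit2 in Exc-CA1-Fras1 and Robo1 in Exc-Cdh12 were lost without D2 library 3. Robo1 was called lower in Exc-Gpc6 (-1.14) although its libraries overlapped, at 46.2 and 25.7 CPM in B6 and 10.6 and 26.2 CPM in D2, and the fold change was -0.51 without D2 library 2 and -0.71 without B6 library 2, neither of them a call. The other call with overlapping strains was Robo2 in NN-OPC, at 34.1 and 94.3 CPM in B6 and 42.6 and 36.5 CPM in D2, where B6 library 3 alone was high and the fold change of -0.77 became 0.15 without it. Robo2 was also lower in Exc-CA1-Galntl6, Exc-Gpc6 and NN-VLMC. The strain difference varied between types for Robo2 (edgeR interaction, adjusted p = 3.44e-12), Robo1 (5.3e-10) and Slit2 (3.73e-05).

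**Figure D4:**
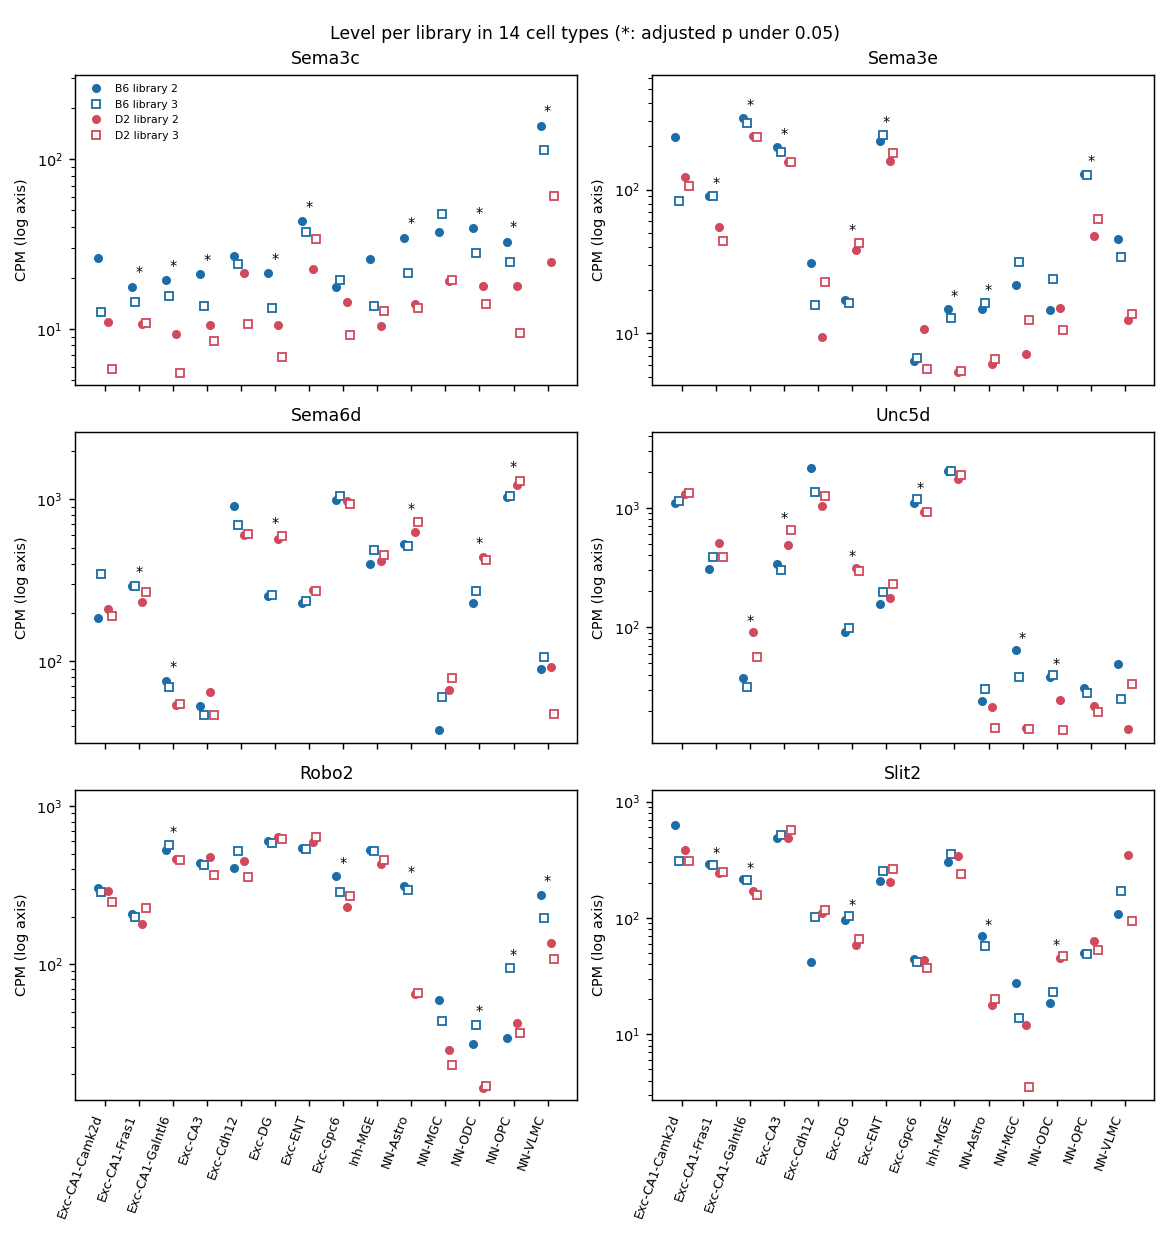
Level of 6 members in each of the 4 libraries (CPM, log axis) across the 14 cell types, B6 in blue and D2 in red, circles for library 2 and squares for library 3; asterisks mark an adjusted p under 0.05. The red points of Robo2 and Slit2 lie below the blue ones in NN-Astro, those of Unc5d, Sema6d and Sema3e lie above them in Exc-DG, and those of Sema3c lie below them in each marked type.

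Among the ephrins, Efnb2, a transmembrane ligand of EphB and EphA4 receptors, was lower in D2 in 7 types, all of them neuronal. In Exc-Gpc6 it was at 61.3 and 60.7 CPM in B6 and 34.5 and 37.5 CPM in D2, giving a log2 fold change of -0.85 ± 0.17 (SE, adjusted p = 0.000439). In Exc-DG it was at 27.7 and 28.7 CPM in B6 and 16.2 and 21.4 CPM in D2, giving a log2 fold change of -0.66 ± 0.13 (SE, adjusted p = 0.00158). The strains did not overlap in either type. Its fold changes in the other 5 types lay between -0.60 in Exc-CA1-Fras1 and -0.46 in Inh-MGE, the former lost without D2 library 2, and the call in Inh-MGE (adjusted p = 0.0499, edgeR) was lost in 9 of the 12 alternatives. In Exc-ENT its change ran from -0.22 to -0.88 when D2 library 2 or D2 library 3 was left out. The microglial and oligodendrocyte lists were lower and the vascular leptomeningeal list higher in D2 in all 7 types, and their part was not tested. Efna5, the membrane-anchored ligand of EphA receptors, was lower in Exc-CA1-Fras1 (-0.35). In NN-ODC its levels were 9.37 and 10.2 CPM in B6 and 0.749 and 3.50 CPM in D2, giving a log2 fold change of -2.08 ± 0.56 (SE, adjusted p = 0.0122), which rests on few reads and was lost under DESeq2 and without D2 library 2 (-1.39) or either B6 library. Without D2 library 3 the fold change was -3.56.

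Of the Eph receptors, Ephb1, which guides axons that avoid the midline in response to Efnb2, gave 5 calls that all held in the 12 alternatives. In NN-OPC it was at 32.7 and 22.8 CPM in B6 and 84.4 and 50.4 CPM in D2, giving a log2 fold change of 1.24 ± 0.22 (SE, adjusted p = 9.7e-06). In NN-ODC it was at 291 and 279.8 CPM in B6 and 444 and 423 CPM in D2, giving a log2 fold change of 0.66 ± 0.12 (SE, adjusted p = 0.000209). It was also higher in D2 in Exc-Gpc6 (0.81) but lower in Exc-CA3 (-0.57) and Exc-DG (-0.41), and its interaction had an adjusted p of 7.65e-09. Epha3 was lower in Exc-DG, at 118 and 118 CPM in B6 and 68.3 and 66.9 CPM in D2, giving a log2 fold change of -0.87 ± 0.08 (SE, adjusted p = 7.63e-07). In NN-VLMC it was higher, at 131 and 54.9 CPM in B6 and 191 and 240.0 CPM in D2, giving a log2 fold change of 1.37 ± 0.30 (SE, adjusted p = 0.00169), a call lost without B6 library 3. Epha6 was lower in 5 types, from -0.84 in NN-Astro to -0.20 in Exc-DG, and Epha7 in 3, from -0.92 in Exc-Gpc6 to -0.40 in Exc-CA1-Fras1, and the smallest change of each was lost without B6 library 2 or D2 library 3. Epha4 was lower in NN-MGC, Exc-CA1-Fras1 and Exc-CA1-Galntl6, and Epha5 was higher in Exc-DG (0.35), where it was the only EphA receptor called higher.

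A strain difference that varied between types was found for 27 of 69 members (39.1%) in 1 edgeR fit of all types with library as a term, beside 16% of all symbols. Restricted to neuronal types the count was 14 of 63, beside 7.34% of all symbols. Calls in opposite directions were seen for 11 members: Epha3, Ephb1, Ntn4, Robo1, Sema3e, Sema4d, Sema5a, Sema6d, Slit2, Unc5c and Unc5d. Another 26 members were called lower only, 11 higher only, and 22 in no type, and the matching shares of all symbols were not computed.

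Genes that act with the members were counted by the same test, in lists chosen with earlier results of these data known. The share of all symbols beside them was not matched for level. Of 20 coreceptors and further ligands, 83 of 252 pairs passed (32.9%, beside 15.9% of all symbols), 67 lower and 16 higher in D2, with a median log2 fold change of -0.144 over the pairs tested. Flrt3, which binds Unc5 receptors and Robo1, and Lrrc4, the receptor of Ntng2, were each lower in D2 in 10 types. In Exc-CA3, for example, Flrt3 was at 228 and 227 CPM in B6 and 159.9 and 144 CPM in D2 and Lrrc4 at 558 and 583 CPM in B6 and 418 and 395 CPM in D2. For Flrt3 and Lrrc4 alike, 6 of the 10 calls held in all 12 alternatives. Nell2, a Robo3 ligand, was called lower in 8 types, of which 3 held in all alternatives and Exc-ENT had overlapping libraries. Flrt1 was called higher in 6 types, each call lost in at least 2 alternatives, and Ntn3 in 5, of which 2 held in all. The genes named here were chosen after their values were seen. Of 44 intracellular effectors, such as the collapsin response mediators, 114 of 558 pairs passed (20.4%), 81 lower and 33 higher, with a median of -0.072.

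Chromatin accessibility at the gene starts was compared in the 9 neuronal types of the single-nucleus ATAC table, as the CPM of the peak within 1000 bases of the start. The ATAC nuclei were separate from those of the RNA libraries and were not enriched with NeuN. The totals per type and library lay between 840366 and 27815541, and no test was run. Of 47 members with 1 RefSeq start and a peak, 423 pairs of a member and a type were compared. In the 57 pairs whose transcript was lower in D2, accessibility was lower in both D2 libraries in 13, higher in 6 and overlapping in 38. In the 11 pairs whose transcript was higher, it was higher in 8, lower in 0 and overlapping in 3. In the 355 pairs whose transcript was not called it was lower in 62, higher in 81 and overlapping in 212. These counts were not compared with those of all genes.

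At the Sema4g start, whose CG-rich promoter is printed above, accessibility in Exc-DG was 4.84 and 4.29 CPM in B6 and 8.67 and 7.41 CPM in D2, a ratio of 1.76. The ratios were 1.40 in Exc-CA3 and 1.38 in Exc-CA1-Galntl6, again with no overlap, and these are the 3 types in which its transcript was called higher. Accessibility was also higher in Exc-CA1-Camk2d (ratio 1.64) and Exc-CA1-Fras1 (1.27), where the transcript was not called. At the Sema3e start, accessibility in Exc-DG was 9.73 and 10.9 CPM in B6 and 17.1 and 14.2 CPM in D2, a ratio of 1.52. In 4 of the 5 types where the Sema3e transcript was lower and accessibility was measured the libraries overlapped, and in Inh-MGE accessibility was lower with a ratio of 0.904. At the Sema3c start the libraries overlapped in 4 of the 5 neuronal types in which its transcript was lower, and accessibility was lower in Exc-CA1-Fras1 with a ratio of 0.760. It was also lower in Exc-Cdh12 (0.670), Exc-Gpc6 (0.753) and Inh-MGE (0.760), where the transcript was not called. The Efnb2 start, at 48.9 to 71.5 CPM in the 7 types with a lower transcript, overlapped between the strains in 6 of them, and in Inh-MGE it was more accessible in D2, at 66.5 and 66.3 CPM in B6 and 67.6 and 71.5 CPM in D2. The Unc5a start was more accessible in D2 in 5 of the 6 types in which its transcript was lower, with ratios of 1.06 to 1.14. Where the Unc5a transcript was not called, its start was more accessible in Exc-Gpc6 (1.04) and less in Exc-Cdh12 (0.917).

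**Figure D5:**
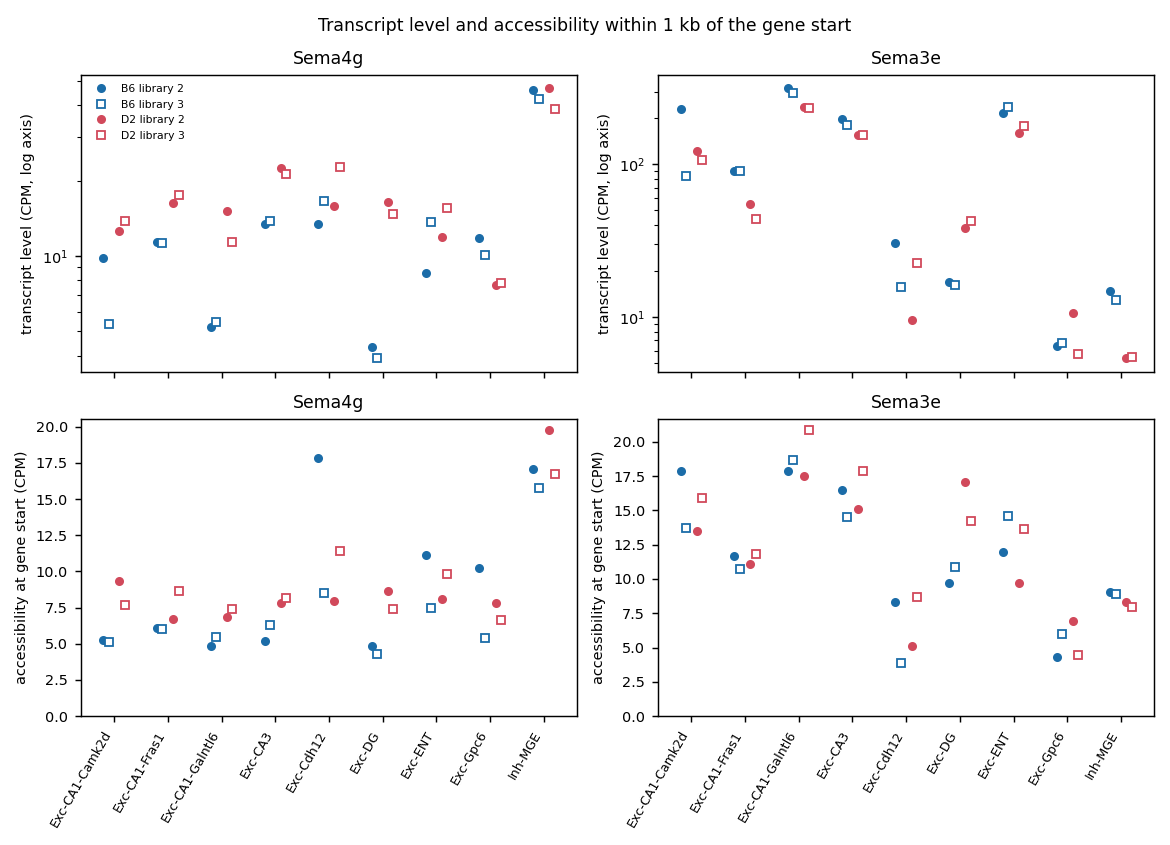
Transcript level (CPM, log axis, top) and accessibility within 1 kb of the gene start (CPM, bottom) of Sema4g and Sema3e in each library of 9 neuronal types, B6 in blue and D2 in red, circles for library 2 and squares for library 3. In Exc-DG both measures are higher in D2 for both genes (accessibility ratios of 1.76 and 1.52), whereas the accessibility points of Sema3e overlap in Exc-CA1-Galntl6, where its transcript was lower in D2.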

How the data were processed

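Single-nucleus RNA and ATAC sequencing (10x Genomics) of 2 libraries per strain was used. Per the labels and the study's methods, the authors ran Cell Ranger 6.0.2 with intronic reads retained and Cell Ranger ATAC 2.0.0 on mm10, or on mm10 with D2 variants for D2, filtered nuclei and doublets, clustered and named them with Seurat 4.0.5, and deposited raw counts summed per cell type and library over genes and over 300819 merged peaks, with the number of nuclei. The columns carry library numbers 2 and 3, whereas the labels number replicates 1 and 2, so that each column could be placed in a strain only. The 12 RNA columns of 3 types (Inh-CGE, Inh-Lamp5 and CR-CR) and 24 ATAC columns were not used here. The methylation samples of the series, 16 in all, were not analysed here.

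Counts of the 24669 symbols found in both strains were tested per type with edgeR 4.0.16 (R 4.3.3; filterByExpr, TMM, quasi-likelihood F test, D2 minus B6, Benjamini-Hochberg per type), with a call at an adjusted p under 0.05. One further fit over all 14 types with library and type as terms tested the interaction of strain and type. SE is the absolute log2 fold change divided by the square root of F. CPM used raw totals of those symbols. Accessibility used peaks within 1000 bases of RefSeq gene starts, of which 60 of 70 members had an entry; Dcc, Efnb3, Ntn1, Plxna1, Plxna4, Sema3b, Sema3f, Sema6a, Slit1 and Unc5d had none. The script was tested on simulated data. Members, lists and tests were chosen with earlier results of these data known. Named for strain were the 12 members called with no overlap in the most types and the called member with the largest change per type at a mean of at least 5 CPM; named for levels were up to 2 members per family with the highest tau at a mean of at least 20 CPM in the highest type. Outside this rule, and chosen after their values were seen, Sema4a, Sema5a, Nrp2, Plxna1, Plxna2, Ntn4, Ntng1, Ntng2, Slit1, Slit3 and Epha3 to Epha7 are also described for strain, and Plxnb2, Plxna2, Plxna4, Epha6 and Dcc for levels. Alternatives were DESeq2 1.42.0, RLE factors, 2 other count filters, all symbols, a replicate block, each library left out, and 2 settings chosen after seeing the data, namely crossed library numbers and library totals without factors. Some marker results are not reported here.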

Additional observations from a re-analysis of the deposited data

Results flagged for a closer look

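For 27 members the strain difference was not the same in all cell types by the edgeR interaction test of strain and type, with p-values adjusted over all 19020 symbols tested. Among semaphorins these were Sema5a (3.44e-11), Sema6d (3.53e-11), Sema3e (1.56e-08), Sema4g (1.84e-07), Sema6a (0.000198), Sema3d (0.0123), Sema3a (0.0144), Sema5b (0.0182) and Sema4d (0.0264), with the adjusted p in parentheses. Among their receptors they were Nrp1 (2.57e-05) and Plxna4 (0.000563). Among Eph receptors they were Ephb1 (7.65e-09), Epha3 (0.00113), Epha4 (0.0102), Epha7 (0.0105) and Ephb3 (0.0174). In the Slit and Robo system they were Robo2 (3.44e-12), Robo1 (5.3e-10), Slit2 (3.73e-05), Slit1 (5.83e-05) and Slit3 (0.00998). Among netrins and their receptors they were Unc5d (2.57e-14), Ntn4 (1.87e-06), Unc5c (4.5e-06), Dcc (0.00142), Ntn5 (0.00885) and Unc5a (0.0302). The test covers all 14 types together and does not say which type differed. Of the 27, 18 to 26 passed again when 1 of the 4 libraries was left out.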

How the results depend on the processing

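Of the 160 strain calls among members, 157 were kept with RLE factors, 156 with the library number as a replicate block (175 calls in all) and 140 with library totals without normalization factors (155 in all). The library numbers shared only a number: the correlation of deviations lay between -0.147 and 0.057 over types. Crossing the numbers, a setting chosen after seeing the data, gave 190 calls. DESeq2 gave 76, all of them among the 160. Counts were 178 with symbols of at least 1 count, 155 with at least 50 counts and 175 with every symbol of the table, where 24.8% of members and 23.8% of all symbols passed and the lower share was 72.6% among members and 41.7% among all symbols. Leaving out 1 library gave 110 (D2 library 3) to 170 calls (B6 library 3), with the lone sample assumed to vary like the others. The only reversal was Robo2 in NN-OPC, which ran from -1.29 without B6 library 2 to 0.15 without B6 library 3, the library with the highest level there. Leaving out 1 library moved 20 of the 84 named changes by more than 1.5 times. Beside those given above, these were Plxna4 (-0.23 without D2 library 3) and Unc5c (-0.17 without B6 library 2) in Exc-CA1-Fras1, Unc5c in Exc-DG (-0.24) and NN-Astro (-0.22) and Unc5d in NN-ODC (-0.62) without D2 library 3, and Robo1 in NN-MGC (-0.78) and Sema3c in Exc-CA3 (-0.56) and NN-Astro (-0.58) without B6 library 2. Interaction calls fell from 27 to 14 with neuronal types only, which tests fewer types, were 23 without the library term, and ran from 19 to 33 with 1 library left out. Members with a leading type numbered 26 with TMM factors over all columns and 28 to 39 with 1 library left out. Of the 84 named pairs, 39 were lost with DESeq2, 13 without normalization factors, 5 and 3 with the filters, 3 with the replicate block, 1 with RLE factors, 1 with every symbol, and 9 to 31 with 1 library left out, the reversal included. Depth limits NN-VLMC and NN-MGC, where 30 and 27 members could be tested.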
